A study of Sus scrofa with 24 samples.

Results

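The glucocorticoid system of the hippocampus was described through 9 genes chosen by symbol, out of the 38882 genes listed for each library. They are the glucocorticoid receptor gene NR3C1 and the mineralocorticoid receptor gene NR3C2, the receptor co-chaperones FKBP4 and FKBP5, the cortisol-regenerating enzyme HSD11B1, the steroid-induced genes TSC22D3 and SGK1, and corticotropin-releasing hormone, CRH, with its receptor CRHR1. Hippocampal RNA was sequenced from 24 piglets at postnatal day 14. Piglets were PIC Camborough × PIC 359 crosses, born small for gestational age (SGA) or appropriate for gestational age (AGA). They received a control formula (CON) or a formula with hydrolyzed fat (HF), in which part of the fat was already split into free fatty acids and monoacylglycerol. The HF formula also held soy lecithin and cholesterol, which the CON formula lacked, so that the diets differed in more than hydrolysis. There were 6 piglets in each of the AGA CON, SGA CON, AGA HF and SGA HF groups. An SGA and an AGA piglet of the same sex and litter shared a diet, so that the 24 piglets form 12 litters, 6 on each diet. Litters came in 2 cohorts. SGA is a birth weight class of full-term piglets, so that the groups differ in natural birth weight and not in an induced restriction. The question asked of these genes was whether low birth weight or diet went with a different setting of the stress axis in the hippocampus.

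Cortisol, the main glucocorticoid of the pig, binds receptors that wait in the cytoplasm in a complex with heat shock proteins. FKBP5 in this complex lowers the affinity for cortisol, while FKBP4 takes its place when the hormone binds and helps carry the receptor to the nucleus, where it acts on target genes. The hippocampus is known for holding both the high-affinity mineralocorticoid receptor and the glucocorticoid receptor, and it takes part in the feedback that restrains CRH release from the hypothalamus. Hippocampal CRH itself is made mainly by local interneurons in rodents.

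Of the 9 genes, none passed the test for birth weight, for diet or for their interaction in the fit across all genes, at the false discovery rate (FDR, the adjusted p) of 0.4 used here. CRH stood closest to a difference. It had 8.74 ± 2.18 CPM (read counts scaled to library size, SD, n = 12) in SGA against 6.00 ± 1.69 CPM (n = 12) in AGA piglets, and it was higher in the SGA piglet of 9 of the 12 littermate pairs. Its call depended on the model, as described with its values. The receptors, co-chaperones, HSD11B1, TSC22D3 and SGK1 had overlapping values in all 4 groups.

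Libraries held 6017336 to 9284355 counts over the listed genes, so that 3 counts correspond to 0.323 to 0.499 CPM. Markers of hippocampal neurons were present in every library, among them SLC17A7 of glutamatergic neurons, at 1577 to 4956 CPM, and PROX1 of dentate granule cells, at 37.1 to 64.3 CPM. CALB1, another marker of dentate and pyramidal cells, was near the detection floor, at 0 to 1.57 CPM. A pair of libraries stood apart. SGA HF replicate 4 carried the pituitary transcripts GH1 at 306 CPM and PRL at 7.37 CPM, and AGA CON replicate 2 had the lowest summed neuronal markers, at 2587 CPM, with the highest summed markers of astrocytes, microglia and endothelium. AGA HF replicate 4 lay nearest to AGA CON replicate 2 in these sums, with neuronal markers at 3336 CPM. Summed oligodendrocyte markers (MBP, MOG and MAG) were lower in the SGA piglet in 10 of 12 littermate pairs, with medians of 6548 CPM in SGA and 8147 CPM in AGA piglets. The sums follow their most highly counted gene. GFAP, at a mean of 8236 CPM, made up most of the astrocyte sum, and MBP, at 6597 CPM, most of the oligodendrocyte sum. GAD1, at 184 CPM, made up most of the sum of interneuron markers given below. Fewer cells of a type and less RNA per cell cannot be told apart in such tissue samples, and the part of these marker shifts in the results below was not tested.

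Levels between genes were compared as CPM per kilobase of counted exon. FKBP4 was the highest of the 9 at 163.5 ± 15.5 CPM per kilobase (SD, n = 24), followed by TSC22D3 at 79.9 ± 7.02, HSD11B1 at 44.6 ± 7.94 and SGK1 at 20.4 ± 2.29 CPM per kilobase. FKBP5 followed at 4.38 ± 0.847, NR3C1 at 2.87 ± 0.387, CRH at 2.80 ± 0.901, CRHR1 at 1.79 ± 0.597 and NR3C2 at 0.212 ± 0.109 CPM per kilobase. This order held between neighbours in 24 of 24 libraries, with 2 exceptions. NR3C1 was above CRH in only 13 of 24 libraries, so that these neighbours did not differ beyond their spread, and CRH was above CRHR1 in 22 of 24. On this scale of level per length, FKBP4 was above 96.5% of the 16326 tested genes, NR3C1 above 37.5% and NR3C2 above 2.28%. The study selected poly(A) RNA and reports a reduced average RNA quality number, which it puts down to pre-spliced RNA. Whether uneven coverage along transcripts lowers long genes against short genes on this scale was not tested.

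**Figure D1:**
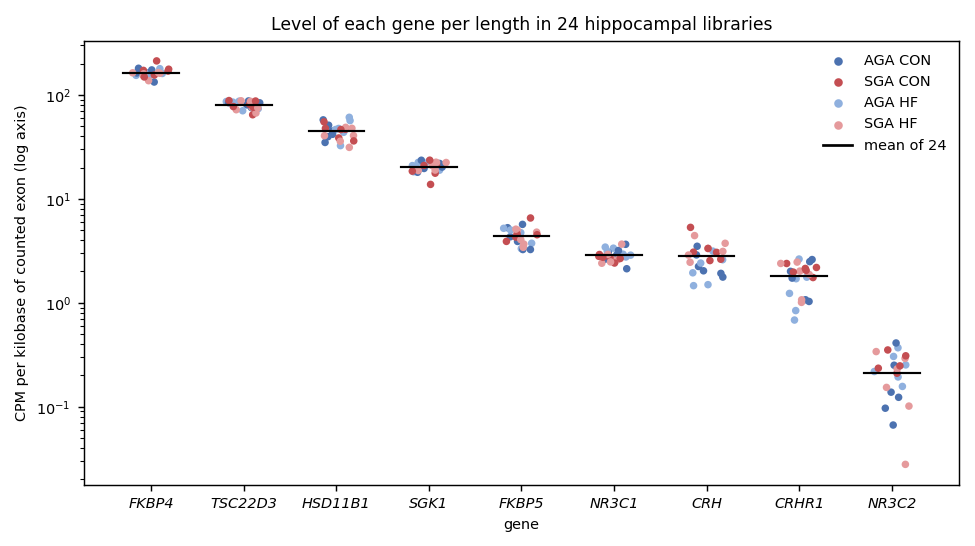
Level of each gene as CPM per kilobase of counted exon, on a log axis, in the 24 libraries (points, coloured by group) with the mean (line). The genes run from FKBP4 at 163.5 to NR3C2 at 0.212 CPM per kilobase, NR3C1 and CRH lie at the same height, and the library of SGA CON in which NR3C2 had 0 counts cannot be drawn on this axis.

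NR3C1 (gene 396740, chromosome 2 from 151051816 to 151185046 in Sscrofa10.2, minus strand) encodes the glucocorticoid receptor, which is filled mainly when cortisol is high. In AGA CON piglets it ranged from 16.8 to 28.9 CPM with a median of 23.5, and in SGA CON from 19.1 to 23.1 with a median of 21.6. In AGA HF it ranged from 21.8 to 27.2 CPM with a median of 23.98, and in SGA HF from 19.0 to 29.0 with a median of 20.6. The groups overlapped, and SGA CON had the narrowest range. SE denotes the standard error of a fold change. The log2 fold change of SGA against AGA was -0.02 (SE 0.074, FDR 0.983 in edgeR's quasi-likelihood test). Between littermates the SGA piglet was lower in 9 of 12 pairs, by a mean log2 difference of -0.12 (SD 0.308, exact sign-flip p = 0.188, two-sided). The cohorts did not look alike, with a mean difference of 0.04 and SGA higher in 3 of 6 pairs in cohort 1, and a mean of -0.28 and SGA lower in all 6 pairs in cohort 2. This contrast between cohorts was not tested. In the edgeR fit of cohort 2 alone, NR3C1 had an unadjusted p under 0.05 for size, and it did not pass at an FDR of 0.4.

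NR3C2 (gene 100620970, chromosome 8 from 85308914 to 85644752, plus strand) encodes the mineralocorticoid receptor, which cortisol fills already at low levels. It was counted at 0 to 13 reads per library, or 0 to 1.73 CPM, and reached 1 CPM in 10 of 24 libraries. The spread over libraries was 51.7% of the mean, where counting alone at a mean of 6.63 reads gives 38.9%. Values between 0.280 and 1.73 CPM in AGA CON, 0 and 1.48 in SGA CON, 0.659 and 1.55 in AGA HF and 0.117 and 1.43 CPM in SGA HF overlapped widely. The 95% interval of the SGA against AGA log2 fold change ran from -1.27 to 0.23, so that a difference of the mineralocorticoid receptor was not detectable at this depth unless it was large. Its low count holds for this gene model and does not rank the receptor proteins.

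FKBP4 (gene 100337672, chromosome 5 from 69600337 to 69607970, minus strand) had the smallest counting error of the group, with 1367 to 2847 reads per library. It ranged from 206 to 279 CPM in AGA CON with a median of 257, from 230.3 to 329 in SGA CON with a median of 264, from 239 to 277 in AGA HF with a median of 249 and from 212 to 254 CPM in SGA HF with a median of 248. The groups overlapped, and the highest library was SGA CON replicate 3. The SGA against AGA log2 fold change was 0.02 (95% interval -0.09 to 0.12, FDR 0.977 in edgeR). Between the diets, means over litters differed by a log2 of -0.07 (HF minus CON, exact permutation p = 0.188 over 6 against 6 litters), and by -0.10 with an exact p of 0.0455 when litter 4, which holds AGA CON replicate 2, was left out.

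FKBP5 (gene 100155423, chromosome 7 from 36370570 to 36478505, minus strand) is both a brake on the receptor and one of its best known induced targets. It ranged from 17.1 to 29.8 CPM in AGA CON with a median of 21.6, from 20.5 to 34.4 in SGA CON with a median of 23.3, from 17.4 to 27.3 in AGA HF with a median of 22.2 and from 17.9 to 26.8 CPM in SGA HF with a median of 23.2. No group stood above another, and the highest value belonged to SGA CON replicate 6. The log2 fold change was 0.05 for SGA against AGA (SE 0.108, FDR 0.965 in edgeR) and -0.17 for HF against CON (SE 0.108, FDR 0.823). Littermates differed in either direction, from -0.60 to 1.00 on the log2 scale, and SGA was higher in 8 of 12 pairs (exact p = 0.507).

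HSD11B1 (gene 397480, on an unplaced scaffold from 639 to 25106, minus strand) encodes the enzyme that turns inactive cortisone back into cortisol inside the cell. It ranged from 46.4 to 76.5 CPM in AGA CON with a median of 57.6, from 48.0 to 73.2 in SGA CON with a median of 61.9, from 43.2 to 81.0 in AGA HF with a median of 62.5 and from 41.6 to 64.8 CPM in SGA HF with a median of 53.9. SGA HF had the lowest mean, at 54.2 ± 8.95 CPM (SD, n = 6) against 63.8 ± 13.3 CPM in AGA HF, but the groups overlapped. The interaction log2 fold change was -0.13 (SE 0.180, FDR 0.934 in edgeR), and -0.29 without litter 4, where it did not pass either.

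TSC22D3 (gene 100517321, chromosome X from 102611634 to 102673219, minus strand), also known as GILZ, is a leucine zipper protein that glucocorticoids induce in many cell types. It varied least of the 9 over the 24 libraries, by 8.80% of its mean of 153 CPM. It ranged from 144 to 167 CPM in AGA CON with a median of 159, from 123 to 169 in SGA CON with a median of 151, from 135 to 166 in AGA HF with a median of 161 and from 128 to 168 CPM in SGA HF with a median of 145. The log2 fold change of SGA against AGA was -0.06 with a 95% interval from -0.16 to 0.03 (FDR 0.850 in edgeR), and SGA was lower in 7 of 12 pairs. SGK1 (gene 100625739, chromosome 1 from 33226672 to 33256205, plus strand), a kinase induced through both receptors, ranged from 53.7 to 70.1 CPM in AGA CON, 41.0 to 70.2 in SGA CON, 54.3 to 68.4 in AGA HF and 55.8 to 66.9 CPM in SGA HF. Its medians were 61.4, 58.7, 61.8 and 64.5 CPM in the same order. SGK1 was higher in SGA in 6 pairs and lower in 6, with a log2 fold change of -0.06 (SE 0.063, FDR 0.909 in edgeR).

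**Figure D2:**
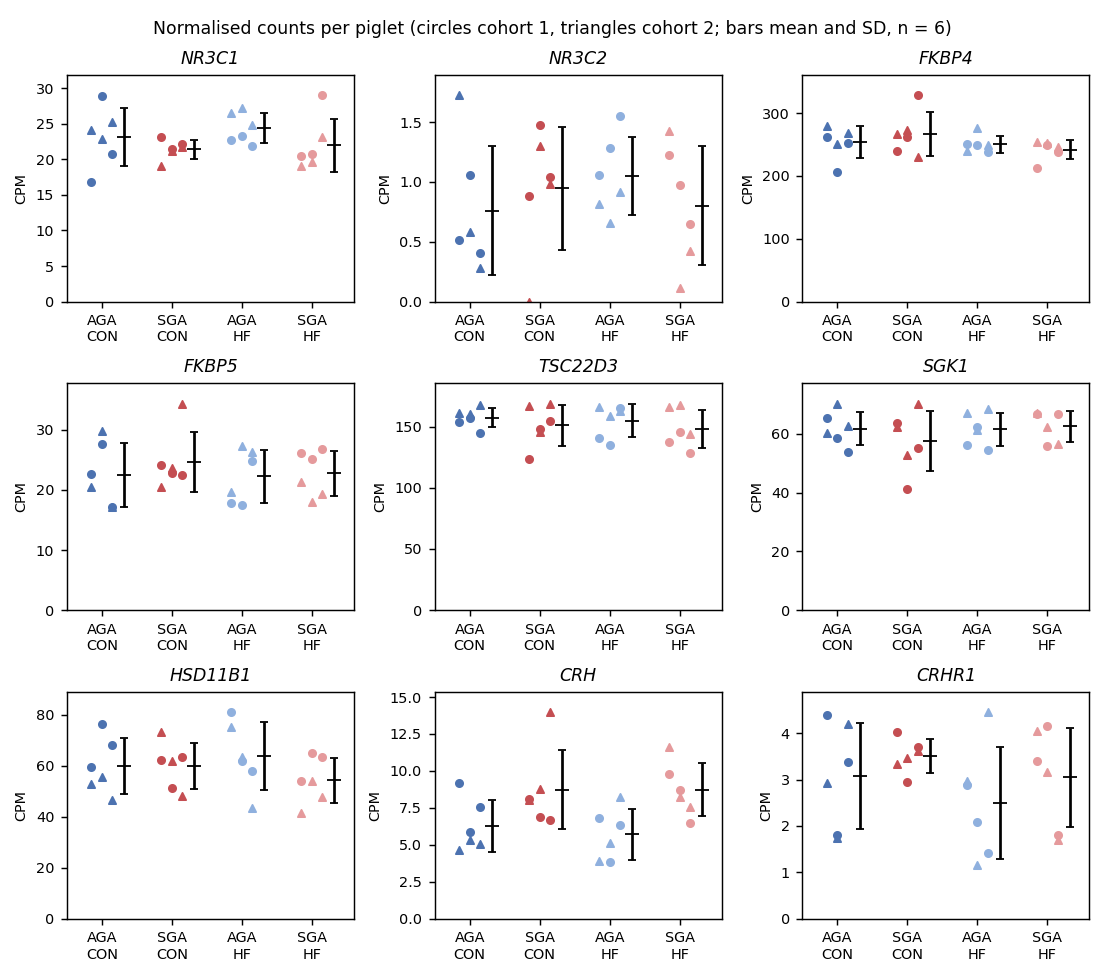
CPM of each gene (vertical axes from 0) in the 6 piglets of each group, with cohort 1 as circles, cohort 2 as triangles and the mean with SD as bars. The groups overlap in every panel, and the CRH panel has both SGA groups at a mean of 8.74 CPM, above AGA CON at 6.28 and AGA HF at 5.71 CPM.

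CRH (gene 100127468, chromosome 4 from 74349511 to 74653689, plus strand) is the peptide that starts the hypothalamic stress response and acts as a local modulator in the hippocampus. It was counted at 24 to 98 reads per library. AGA CON piglets had 4.64 to 9.19 CPM with a median of 5.60, and SGA CON piglets 6.69 to 14.0 with a median of 8.05. AGA HF piglets had 3.84 to 8.25 CPM with a median of 5.72, and SGA HF piglets 6.45 to 11.6 with a median of 8.47. SGA values were shifted upward on both diets while the ranges overlapped. The counted model holds 9 exon intervals spread over 304179 bases with genes of either strand inside that span, and the files give only its total, so that reads from the peptide-coding exon cannot be separated from the others.

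In the fit with sex and 5 surrogate variables, CRH had a log2 fold change of 0.29 for SGA against AGA (SE 0.138, FDR 0.734 in edgeR), which did not pass. Unadjusted p-values under 0.05 were found for 1 of the 9 genes, CRH, beside 10.6% of all tested genes, and the calls at an FDR of 0.4 were 0 of 9 beside 0.478% of all genes, with 0 of 9 in DESeq2 and in limma-voom as well. With the litter as a block, which follows the pairing in the labels, the log2 fold change was 0.54 (SE 0.163, FDR 0.382 in edgeR), and CRH passed as the only one of the 9, where 2.57% of all genes passed and 1.05% passed as higher. None passed at an FDR of 0.05. The mean littermate difference was 0.54 on the log2 scale (SD 0.602, n = 12 litters, exact sign-flip p = 0.0112, two-sided), with SGA higher in 9 of 12 pairs. At least 9 of 12 pairs moved in a single direction for 22.5% of all tested genes, so that the count of pairs by itself does not set CRH apart.

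The size of this difference varied between litters. The SGA piglet exceeded its littermate by 1.51 in litter 7 (11.6 against 3.93 CPM) and by 1.42 in litter 12 (14.0 against 5.04 CPM), and by 1.13 in litter 3 (8.74 against 3.84 CPM). Litters 2, 6 and 11 went the other way, by -0.18, -0.18 and -0.12. The SGA piglet of litter 7 is the library with pituitary transcripts. Its AGA littermate, AGA HF replicate 4, had summed neuronal markers of 3336 CPM, against 5326 CPM in the SGA piglet. Summed astrocyte markers were 11215 CPM in this AGA piglet and 8854 CPM in the SGA piglet. Under the litter block the log2 fold change was 0.44 without litter 7 (FDR 0.583 in edgeR), 0.44 without litter 12 (FDR 0.563) and 0.56 without litter 4 (FDR 0.503), so that CRH no longer passed when any of these 3 was left out. Without litter 4 the call was lost although the estimate was not smaller than with all litters. Leaving out each litter in turn kept the mean littermate difference between 0.45 and 0.60, with exact p-values from 0.00879 to 0.0225.

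By diet, the mean littermate difference of CRH was 0.46 on CON (SD 0.623, 4 of 6 pairs) and 0.62 on HF (SD 0.627, 5 of 6 pairs), and no difference between the diets was detected (0.16, exact permutation p = 0.656). By cohort it was 0.26 (SD 0.503, 4 of 6 pairs) in cohort 1 and 0.82 (SD 0.595, 5 of 6 pairs) in cohort 2. In edgeR fits of each cohort alone the log2 fold change was 0.25 (FDR 0.972) and 0.84 (FDR 0.771). Summed interneuron markers (GAD1, GAD2, SST, PVALB and VIP) were higher in SGA in 6 of 12 pairs, with medians of 275.9 CPM in SGA and 261 CPM in AGA piglets, and summed neuronal markers were higher in SGA in 8 of 12 pairs, with medians of 5315 and 5278 CPM. The part of cell composition in the CRH difference was not tested.

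**Figure D3:**
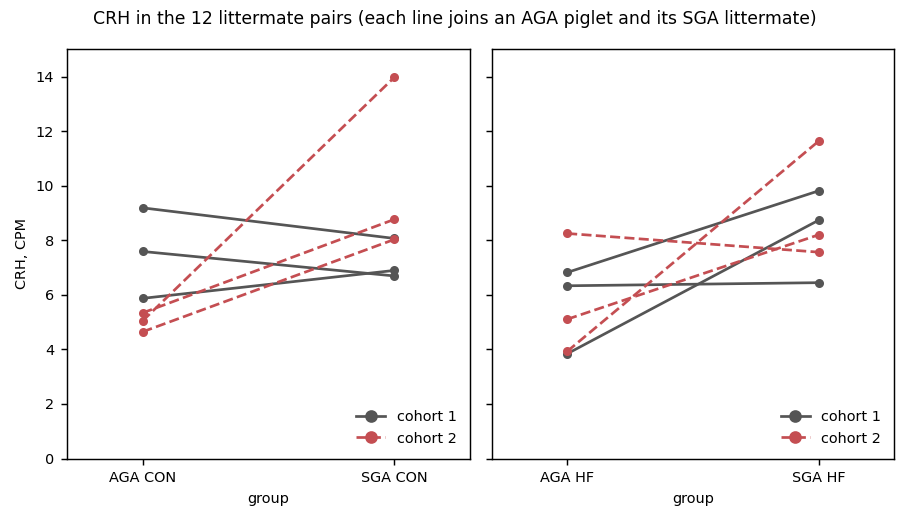
CRH in CPM in AGA piglets and their SGA littermates on CON (left) and HF (right), with a line for each litter, solid for cohort 1 and dashed for cohort 2. Lines rise in 4 of 6 litters on CON and in 5 of 6 on HF, and the steepest end at 14.0 CPM on CON and 11.6 CPM on HF.

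CRHR1 (gene 397426, chromosome 12 from 17367191 to 17420472, minus strand), the main CRH receptor of the forebrain, was counted at 7 to 34 reads per library. It ranged from 1.74 to 4.40 CPM in AGA CON with a median of 3.15, from 2.96 to 4.04 in SGA CON with a median of 3.54, from 1.15 to 4.45 in AGA HF with a median of 2.48 and from 1.71 to 4.16 CPM in SGA HF with a median of 3.29. SGA CON lay within the range of AGA CON. As for CRH, the SGA piglet was higher in 9 of 12 pairs, with a mean log2 difference of 0.28 (SD 0.655, exact sign-flip p = 0.167), and the difference was 0.42 (exact p = 0.0117) without litter 11, whose SGA piglet had 1.71 CPM against 4.45 CPM in its littermate. In the fit across all genes the log2 fold change was -0.06 (SE 0.209, FDR 0.978 in edgeR), and 0.27 with the litter as a block (SE 0.201, FDR 0.783), so that its sign depended on the model.

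**Figure D4:**
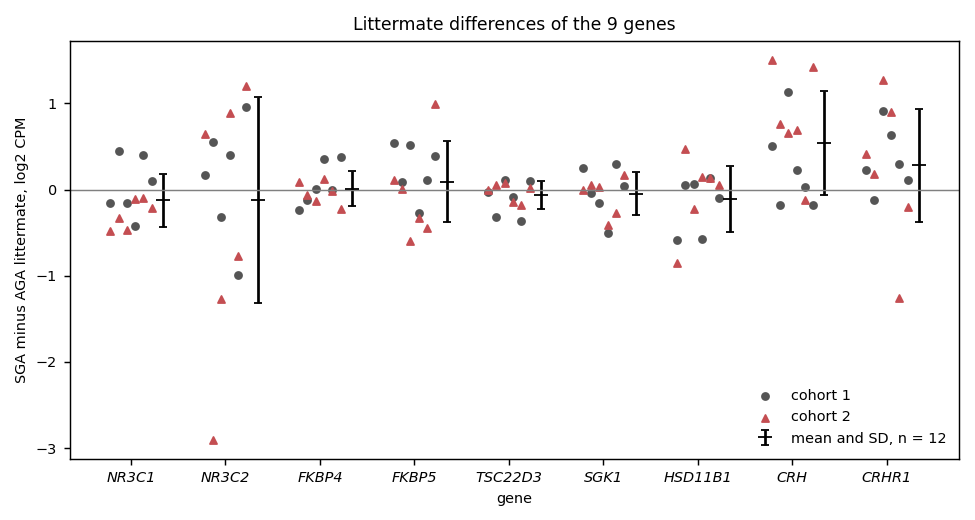
SGA minus AGA difference in log2 CPM for each litter (circles cohort 1, triangles cohort 2) and the mean with SD over 12 litters. CRH has the highest mean, 0.54, with 9 of 12 points above 0, while the means of FKBP4, SGK1 and TSC22D3 lie between -0.06 and 0.01 and NR3C2 spreads from -2.90 to 1.196.

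For diet, 0 of the 9 genes passed in edgeR, beside 0.159% of all tested genes, and 0 of 9 had an unadjusted p under 0.05, beside 7.09% of all genes. DESeq2 and limma-voom also gave 0 of 9. Log2 fold changes of HF against CON lay between -0.17 for FKBP5 and 0.28 for NR3C2. Both ends turned sign when a litter was left out, FKBP5 to 0.05 without litter 4 and NR3C2 to -0.39 without litter 7, and on litter sums they were -0.07 and 0.06. For TSC22D3 the estimate was -0.00 with a 95% interval from -0.09 to 0.09, and for SGK1 it was 0.06 with an interval from -0.06 to 0.19. Diet was given to whole litters, and over 6 against 6 litter means the exact p-values were 0.188 or higher for all 9 genes, where the smallest that this design allows is 0.00216. Litter means of the diets overlapped for all 9 genes, while they did not for 0.172% of all tested genes.

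The interaction of size and diet also gave 0 of 9, beside 0.049% of all genes, with 0 of 9 under an unadjusted p of 0.05, beside 4.01%, and 0 of 9 in DESeq2 and limma-voom. SGK1 had an interaction log2 fold change of 0.20 (SE 0.119, FDR 0.791 in edgeR) and FKBP4 had -0.18 (SE 0.101, FDR 0.776). NR3C2 had the widest estimate, -1.01 with a 95% interval from -2.36 to 0.34. Within each diet and each birth weight class, the 4 pairwise comparisons also called none of the 9, beside 0.129% of all genes for size on CON, 0.288% for size on HF, 0.0674% for diet in AGA and 0.0919% for diet in SGA piglets. An unadjusted p under 0.05 was found for CRH alone, on HF, where 8.02% of all genes had one, and for 0 of 9 in the other comparisons, where 6.59% (size on CON), 6.09% (diet in AGA) and 5.16% (diet in SGA) had one. The CRH estimate on HF did not pass (log2 fold change 0.40, SE 0.191, FDR 0.725 in edgeR).

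**Figure D5:**
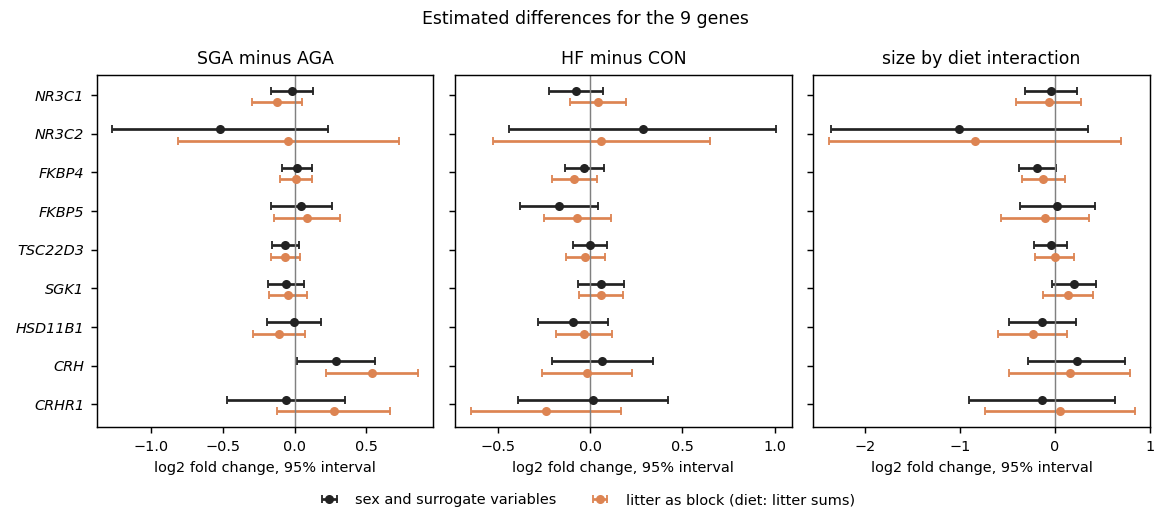
Log2 fold changes of the 9 genes with 95% intervals for SGA against AGA, HF against CON and their interaction, in the fit with surrogate variables (black) and with the litter as a block, or litter sums for diet (orange). In the left panel the CRH interval lies above 0 in both fits, at 0.29 and 0.54, and NR3C2 has the widest intervals.

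Cohorts were compared on counts summed over each litter. The log2 difference of cohort 2 minus cohort 1 was 0.15 for TSC22D3 (SE 0.057, FDR 0.328 in edgeR), 0.14 for SGK1 (SE 0.064, FDR 0.420) and -0.20 for HSD11B1 (SE 0.082, FDR 0.361). These 3 of 9 genes had an unadjusted p under 0.05, beside 11.3% of all genes, but none passed the FDR of 0.05 set for this comparison, which 0.407% of all genes passed. At an FDR of 0.4, as used for size and diet, 2 of 9 passed for cohort, TSC22D3 and HSD11B1, beside 9.13% of all genes. For these genes the cohort estimate was larger in size than that of birth weight. Between the sexes 0 of 9 passed in edgeR, beside 0.11% of all genes, and 0 of 9 had an unadjusted p under 0.05, beside 3.59%.

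Of the wider glucocorticoid pathway, 85 genes were listed by role, of which 79 are listed in the files and 62 were tested. None passed for size or diet in edgeR in the fit with surrogate variables. An unadjusted p under 0.05 was found for 8 of 62 for size, beside 10.6% of all genes, and for 9 of 62 for diet, beside 7.09%. For the interaction 2 of 62 passed, beside 0.049% of all genes. The lists were chosen with earlier results of these data known, so that their shares beside all genes are descriptions only. The heat shock protein gene HSPA8 had an interaction of -0.55 on the log2 scale (FDR 0.391 in edgeR), which was -0.23 under the litter block (FDR 0.840), and it did not pass without litter 4 (FDR 0.457) or litter 7 (FDR 0.494). The lipid droplet gene PLIN4, counted at 4 to 22 reads per library, had 1.56 (FDR 0.371) and 1.65 under the litter block (FDR 0.238), and did not pass without litter 7 (FDR 0.485). In the first of these lists, 13 receptor chaperones were tested. Their median log2 fold change was 0.00 for size and 0.00 for diet. For the interaction 12 of 13 were negative, beside 8043 of all 16326 genes, with a median of -0.11 where that of all tested genes was 0.00. The list was not tested as a set. HSP90AA1, the stress-inducible cytosolic HSP90 that holds the receptor, had 1085 ± 132 CPM in SGA and 1074 ± 83.4 CPM in AGA piglets (SD, n = 12) with a log2 fold change of 0.00 (SE 0.049, FDR 0.997). STUB1, a ligase that marks chaperone clients for degradation, had a log2 fold change of -0.08 for size (FDR 0.787).

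Receptor coregulators gave a median log2 fold change of 0.01 for size, and of -0.06 for diet. For diet 10 of 12 tested genes had a negative estimate, beside 8030 of all 16326 genes, and the list was not tested as a set. The corepressor NCOR1 and the receptor-binding HEXIM1 had log2 fold changes of 0.12 (FDR 0.725 in edgeR) and 0.08 (FDR 0.794) for size, and the RNA coactivator gene SRA1 had 0.12 for diet (FDR 0.676). Of the list of steroid metabolism and transport, 6 genes were tested and none passed. ABCB1, the efflux pump that keeps cortisol out of the brain at the blood-brain barrier, had a log2 fold change of 0.24 for size (SE 0.091, FDR 0.633) and 0.08 under the litter block, with SGA higher in 7 of 12 pairs. SRD5A1, which reduces steroids, had 0.12 for size (FDR 0.877), and TSPO, which admits cholesterol to mitochondria, had 0.33 for diet (FDR 0.813), which was -0.01 without litter 4.

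Of the glucocorticoid-induced targets, 25 were tested. For size 17 were positive and 8 negative, with a median log2 fold change of 0.06, and 5 of 25 had an unadjusted p under 0.05, beside 10.6% of all genes. For diet 5 were positive and 20 negative, with a median of -0.07, and 6 of 25 had an unadjusted p under 0.05, beside 7.09% of all genes. These diet values take piglets and not litters as units. The median of all tested genes was 0.00 in both comparisons, with 8029 of 16326 positive for size and 8030 negative for diet. This list was not tested as a set either. BCL6, a transcriptional repressor, had 37.9 ± 3.22 CPM in SGA and 33.98 ± 3.35 CPM in AGA piglets (SD, n = 12), with SGA higher in 11 of 12 pairs, and a log2 fold change of 0.22 (SE 0.061, FDR 0.428 in edgeR). The clock gene PER1, which glucocorticoids induce directly, had 309 ± 88.7 CPM in SGA and 259 ± 30.8 CPM in AGA piglets, with SGA higher in 10 of 12 pairs. Its log2 fold change was 0.16 for size (SE 0.060, FDR 0.629) and -0.22 for diet (SE 0.060, FDR 0.428). The highest PER1 library was SGA CON replicate 6 at 572 CPM, the same library that was highest for CRH and FKBP5, and without its litter the diet estimate was -0.16 (FDR 0.606). Neither gene passed at 0.4 with all litters or under the litter block, where the size FDR in edgeR was 0.456 for BCL6 and 0.564 for PER1. Left-out litters moved BCL6 to either side of the threshold, with FDR 0.299 without litter 4, 0.574 without litter 7 and 0.343 without litter 12. For PER1 by size the FDR was 0.363 without litter 4, 0.766 without litter 7 and 0.593 without litter 12. GPD1, another of these targets, went the other way, with 93.4 ± 13.5 CPM in SGA and 110.9 ± 11.8 CPM in AGA piglets. SGA was higher in 2 of 12 pairs. Its log2 fold change for size was -0.19 (FDR 0.674 in edgeR). Under the litter block it was -0.25 and passed at 0.4 (FDR 0.142), beside 2.57% of all genes.

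Of the CRH family and pituitary axis, 6 genes were tested and none passed. PCSK1, which cleaves peptide precursors, had 47.3 ± 6.45 CPM in SGA and 39.3 ± 9.95 CPM in AGA piglets (SD, n = 12), with SGA higher in 9 of 12 pairs and a log2 fold change of 0.20 (SE 0.079, FDR 0.644 in edgeR). POMC, the precursor of ACTH, had a log2 fold change of 0.31 for diet (FDR 0.581 in edgeR), which was 0.10 (FDR 0.922) without litter 7, the litter of the library with pituitary transcripts, in which POMC was highest at 48.7 CPM. CRHR2, the second CRH receptor, was near the detection floor at 0 to 2.36 CPM, with a log2 fold change of -0.79 for size (FDR 0.757) and 0.04 under the litter block (FDR 0.990). Mean levels were 0.824 CPM in SGA and 0.836 CPM in AGA piglets, with SGA higher in 6 of 12 pairs, so that the sign of the size estimate depended on the model. For diet the CRHR2 log2 fold change was 1.12 (FDR 0.588 in edgeR), with means of 1.02 CPM on HF and 0.644 CPM on CON. It was 0.71 (FDR 0.739) without litter 4. Several genes of these lists that most cells use, AHSA1 and CREBBP among them, are listed at 0 reads in all 24 libraries, so that a 0 in these files is not read as absence.

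Littermate differences were related for 6 pairs of genes over 12 litters. FKBP5 and SGK1 had the highest correlation, with Pearson's r of 0.54 (permutation p = 0.0679, adjusted p = 0.407 over the 6 pairs) and Spearman's rho of 0.53 (permutation p = 0.0817, adjusted p = 0.490), and r was 0.67 without the 2 litters farthest from the median of FKBP5. Within cohorts it was 0.57 and 0.61, while over litter means in place of differences r was -0.10. CRH and CRHR1 had r of 0.36 (permutation p = 0.255, adjusted p = 0.766) and rho of 0.37 (permutation p = 0.236, adjusted p = 0.708). For this pair r was 0.66 without the 2 litters farthest from the median of CRH, 0.83 in cohort 1 and 0.38 in cohort 2. No pair passed the adjustment.

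The genes most like each of the 9 were found by Pearson correlation of log2 CPM over 24 libraries after the group means were subtracted, among 11693 or 11694 named genes. FKBP4 was most like STIP1, with r of 0.83, which encodes the co-chaperone that links HSP70 and HSP90. NR3C1 was most like AP4E1 at 0.86, TNKS2 at 0.76 and ARID2 at 0.75. FKBP5 was most like CPEB2 at 0.82, RDX at 0.76 and RBBP6 at 0.71. CRH was most like KDF1 at 0.78, CACNA2D2 at 0.76, a calcium channel subunit, and VSNL1 at 0.73, a neuronal calcium sensor. TSC22D3 was most like LZTS2 at 0.80, SGK1 like ZNF232 at 0.74, HSD11B1 like CDC40 at 0.80, CRHR1 like FAM171A2 at 0.78 and NR3C2 like ZSCAN20 at 0.78. These are descriptions over libraries that share depth and tissue composition, and the highest of many correlations is high by selection.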

How the data were processed

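Per the study's methods and the submitters' notes, the authors trimmed single-end stranded reads (Trimmomatic 0.33), aligned them to Sscrofa10.2 with STAR 2.5.2a and counted them on exons by Entrez gene and strand with featureCounts (Subread 1.5.0). The authors deposited whole-number counts for 38882 genes per library. An entry without identifier (0.613 to 1.62% of reads) was left out. Names came from a table of Sscrofa11.1 (23036 identifiers matched), and coordinates from the files. Reads carried no molecular tags, and the floors and counting spreads given here cover counting error alone, without noise from amplification.

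CPM used TMM library sizes. Genes reaching 1 CPM in 3 or more libraries (16326) were fitted in R 4.3.3 with edgeR 4.0.16 (quasi-likelihood) on 4 groups, sex and 5 surrogate variables (sva 3.50.0, log2 CPM with prior count 2). The Benjamini-Hochberg FDR covered 7 contrasts together in the fits on the 4 groups, with calls at 0.4, which the study names for its heat map, and at 0.05. The litter block was adjusted over its own contrasts together (size, interaction and size on each diet), and litter sums over each contrast alone. Littermate differences were tested by exact sign flips, diets by exact permutation over litter means, cohort and sex on litter sums, and correlations by 100000 permutations. DESeq2 1.42.0 and limma 3.58.1 (voom) were alternatives. The edgeR procedure was run on simulated counts with a planted size effect. Those counts were drawn independently for each library, so that they do not test it under litter, cohort or hidden structure.

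Litters come from the labels. Deviations of littermates from their group means correlated at 0.154 on average (0.014 to 0.329), over 0.1 in 9 of 12 litters. This is a figure over all genes. For CRH the SD of litter means was 0.185 on the log2 scale, where the spread within litters alone gives 0.301. Of the 9 genes, TSC22D3 (0.102 against 0.080) and CRHR1 (0.373 against 0.327) lay above that value and the others below it. No 2 libraries held identical counts. The 9 genes and the lists were chosen with earlier results of these data known. Beyond them, genes named were those passing 0.4, the 2 with the smallest p for size and the 1 for diet in each list, and the 3 most correlated with each of the 9. GPD1 was named because it passed for size under the litter block. Refits without litters 4, 7 and 12 were chosen after seeing the data. The brain imaging, fatty acid and behaviour measurements of the study were not analysed here. Some single genes are not reported here and were left out of the lists.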

Additional observations from a re-analysis of the deposited data

Results flagged for a closer look

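Each gene was examined in each group of 6 piglets for a library far from the others, which gives 36 combinations of gene and group, and by chance about 1 in 20 is picked out. CRH in SGA CON replicate 6 had 13.97 CPM, and the next piglet of its group had 8.77 CPM, a gap of 0.715 of the whole range of the group. FKBP5 was also highest in SGA CON replicate 6, at 34.4 CPM with the next piglet at 24.1 CPM, a gap of 0.739 of the range. FKBP4 in AGA HF replicate 5 had 276.6 CPM with the next piglet at 251 CPM, a gap of 0.676 of the range. FKBP4 in SGA HF replicate 1 had 212.0 CPM, below the next piglet at 238 CPM, a gap of 0.630 of the range.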

How the results depend on the processing

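Of the 9 genes, the number called was 0 for size, diet and interaction in every alternative run, except that size gave 1, CRH, with the litter as replicate block. The pairing of littermates comes from the labels, and the block changed the call of no other of the 9. CRH was higher in SGA in all 11 alternatives, from 0.25 to 0.84 on the log2 scale, with FDR-adjusted p from 0.382 to 0.972 in the tools run, and its log2 fold change was 0.54 with no surrogate variable and 0.49 with 3.

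The number of genes called over the whole table moved much more. For size it was 78, and 210 in DESeq2, 43 with 1 CPM required in 6 libraries, 124 without filter, 13 with 0 and 300 with 3 surrogate variables, 420 with the litter block, 0 in each cohort alone, 1200 with the FDR over each contrast alone and 0 at an FDR of 0.05. For diet it was 26, and 88 in DESeq2, 10 in limma-voom, 9 with 6 libraries, 45 without filter, 0 with 0 and 88 with 3 surrogate variables, 16 with sex and cohort, 1 in each cohort alone, 1 on litter sums, 6 with the FDR over each contrast alone and 0 at 0.05. For the interaction it was 8, and 17 in DESeq2, 1 in limma-voom, 15 with RLE size factors, 1 with 6 libraries, 0 with 0 and 27 with 3 surrogate variables, 45 with the litter block, 0 in each cohort alone, 0 with the FDR over each contrast alone and 0 at 0.05. The cause of these moves was not tested. Each cohort alone holds fewer samples.

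Without litters 4, 7 or 12 in turn, the count for size ran from 71 to 414, for diet from 15 to 237 and for the interaction from 3 to 61, and under the litter block it was 142, 173 and 231 for size and 12, 18 and 23 for the interaction (without litter 4, 7 and 12), with 0 of the 9 genes called in each. In the exact tests, CRHR1 without litter 11 and FKBP4 by diet without litter 4 came under 0.05, at 0.42 and -0.10. In the edgeR refits, the members besides CRH with an unadjusted p under 0.05 were as follows. Without litter 4 they were FKBP4 by diet, HSD11B1 by interaction, and FKBP4 and HSD11B1 by diet in SGA. Without litter 7 SGK1 had one by diet in SGA, and NR3C2 had one by size on HF without litter 4, 7 or 12. In the fit of cohort 2 alone NR3C1 had one by size and by size on HF. Depth limits NR3C2 (0 to 13 reads) and CRHR1 (7 to 34 reads) most.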
